A study of Mus musculus with 18 samples.

Results

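Glycolysis, nutrient uptake and Myc were followed as a group of 35 genes in sorted CD4+ T cells whose adaptor protein LAT was wild type, deleted or mutated. The 35 genes are a list of mouse metabolic genes drawn up with earlier results of these data known, though its rule uses no measured value, and were found on the array through the RefSeq accession of each probe. All 35 were measured, among 31615 genes and unnamed sequences that passed a filter on dim probes, 17056 of them named genes. They comprise 4 glucose and lactate carriers, 16 glycolytic enzymes with the kinase of pyruvate dehydrogenase, 7 carriers of amino acids and iron, 6 enzymes of one-carbon, aspartate and polyamine metabolism, and 2 transcription factors.

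The cells were CD44low CD4+ T cells sorted from the spleens of C57BL/6 mice, with 3 mice in each of 6 groups, and each of the 18 RNA samples was hybridised to a 1-colour Agilent array. The groups were LAT wild type (WT), LAT knockout (LAT KO) and mice carrying the LAT Y136F point mutation (Y136F), each after tamoxifen for 1 or 4 weeks. By the sample titles the WT mice were ERCre- and LAT f/-, the LAT KO mice ERCre+ and LAT f/-, and the Y136F mice ERCre+ and LAT f/m, where ERCre is a Cre recombinase that tamoxifen switches on. The study's design text instead gives Cre to every mouse and LAT Y136F/- to the mutants, so whether WT cells carried Cre is not settled. The age of the mice and the promoter that drives Cre are not given in the sources used here. All mice, WT included, received tamoxifen.

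LAT is a membrane scaffold that T cell receptor signals phosphorylate, and the tyrosine changed in Y136F is the site to which phospholipase C gamma 1 binds. A resting T cell takes up little glucose and few amino acids. On activation it raises glucose carriers, glycolytic enzymes, amino acid carriers and one-carbon enzymes, a programme driven largely by Myc, with Hif1a and the kinase mTORC1 also taking part. Myc binds the E-box CACGTG as a dimer with Max, and Hif1a binds hypoxia response elements around the core ACGTG.

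The targeted gene gave an incomplete check of the labels. Lat stood at 2.32 to 3.16 in LAT KO cells (5 of 6 arrays with a value), 2.75 to 3.85 in WT cells and 3.86 to 4.43 in Y136F cells, so that LAT KO and WT overlapped. These and all levels here are scaled log2 signals, the log2 of a probe's signal less the log2 of the 75th percentile of its array, and a level of one gene cannot be set against that of another. All 10 CD4 T cell markers were well above background on all 18 arrays, with a summed signal of 114 to 167 times the 75th percentile. Being above background does not set CD4 T cells apart, since almost all measured markers of other cell types were so on all 18 arrays too. Sex-linked genes went against the labelled sex on 2 arrays, LAT KO mouse 1 at 1 week and LAT KO mouse 2 at 4 weeks, while LAT KO mouse 3 and WT mouse 3 at 1 week gave an intermediate Xist. All Y136F mice are labelled female and all WT and LAT KO mice at 4 weeks male. LAT KO mouse 3 at 1 week also had 7888 spots marked as outliers, against 187 to 952 on the other arrays. The values given first include these arrays, and calls that end without them are named.

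In Y136F cells after 4 weeks, 4 of the 35 genes rose against WT and none fell: the polyamine enzyme Odc1 (2.13-fold), the glycolytic enzymes Tpi1 (1.96-fold) and Pgam1 (1.58-fold), and the glutamine carrier Slc1a5 (1.66-fold). That is 11.4% of the members, against 3.39% of all 31545 features tested in the comparison (2.47% higher and 0.916% lower). Differences were above 0 for 28 of the 35 members, against 32.3% of all features, and the median difference was 0.33 over the members and -0.19 over all features. These values rest on the brightest probe of each gene, with outlier spots left out. With those spots kept, Slc7a5 (-0.367) and Pfkm (-0.055) lay below 0 rather than above. Of the 14 members with several probes, 4 had all probes above 0, 2 had all below and 8 had probes of both signs. Under quantile normalization, with or without normexp background correction, Pdk1 also fell (-0.64 in both, adjusted p = 0.0386 and 0.0497). In LAT KO cells none of the 34 members tested at 1 week and none of the 35 at 4 weeks differed from WT. A call here is an adjusted p under 0.05 in limma, adjusted by Benjamini-Hochberg over all features.

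**Figure D1:**
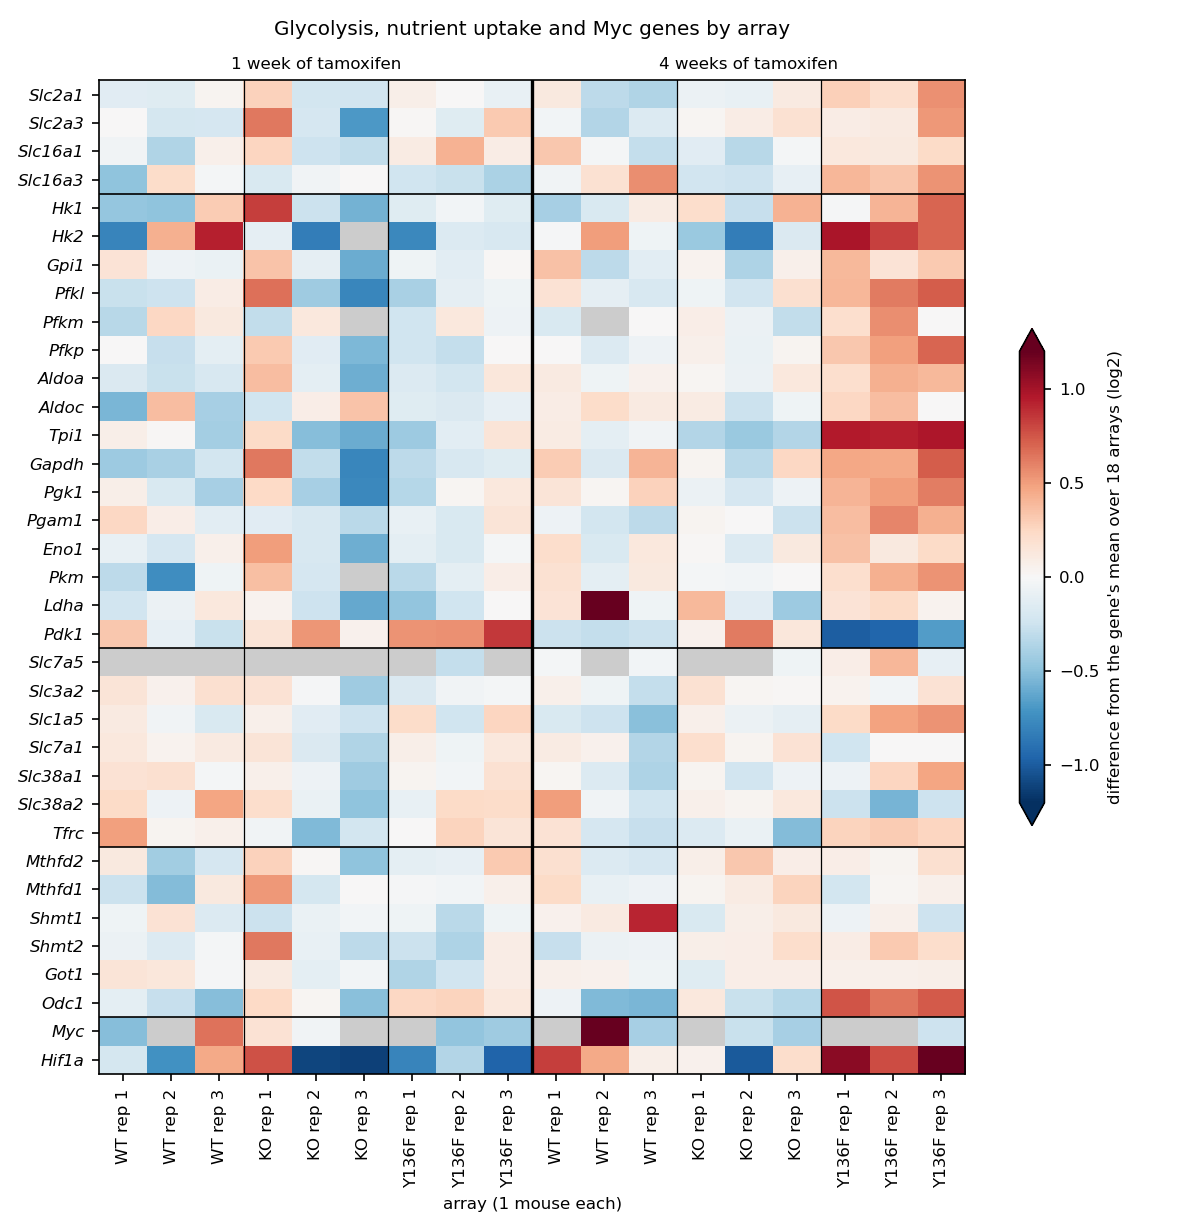
Heatmap of the 35 members (vertical axis, by role) on the 18 arrays (horizontal axis, by group), coloured by the difference of the scaled log2 signal from the gene's mean, with grey where a spot was left out as an outlier. The 3 Y136F arrays of 4 weeks stand out in Tpi1, Pgam1, Odc1 and Pdk1, and LAT KO mouse 3 at 1 week is low across many members.

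By role, 2 of the 16 glycolytic enzymes rose in Y136F cells at 4 weeks and 14 lay above 0 (median difference 0.35). All 4 glucose and lactate carriers lay above 0, with a median of 0.31, and none passed the test. One of the 7 uptake carriers rose and 5 lay above 0 (median 0.15). One of the 6 one-carbon, aspartate and polyamine enzymes rose and 4 lay above 0 (median 0.10). Neither transcription factor passed the test. In bulk RNA of sorted cells, a shift in the mix of cells and a change of RNA within each cell cannot be told apart. Members are not replicates of a condition, and every test compared mice.

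Promoters of the members called in any comparison are shown with that of Ldha, which carries both motifs. They are the 250 bases before the transcription start in the RefSeq annotation of GRCm38.p6, read on the strand of the gene, 5′ to 3′, with motif letters in capitals. Slc1a5 had no entry. The windows are chr6:124814159-124814408 (minus strand) for Tpi1, chr19:41911621-41911870 (plus) for Pgam1, chr12:17544623-17544872 (plus) for Odc1, chr2:71872974-71873223 (plus) for the first start of Pdk1, and chr7:46845554-46845803 (plus) for the first start of Ldha.
Tpi1: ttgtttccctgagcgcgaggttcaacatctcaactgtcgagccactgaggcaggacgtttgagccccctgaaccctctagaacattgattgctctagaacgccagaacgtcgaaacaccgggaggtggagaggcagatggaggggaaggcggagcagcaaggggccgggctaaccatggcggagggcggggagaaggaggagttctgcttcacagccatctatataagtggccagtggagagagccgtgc
Pgam1: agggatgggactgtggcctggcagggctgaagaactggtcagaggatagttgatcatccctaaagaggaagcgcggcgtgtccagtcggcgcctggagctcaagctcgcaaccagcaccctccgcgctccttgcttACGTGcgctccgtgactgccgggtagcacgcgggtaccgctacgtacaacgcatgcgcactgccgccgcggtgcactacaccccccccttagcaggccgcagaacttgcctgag
Odc1: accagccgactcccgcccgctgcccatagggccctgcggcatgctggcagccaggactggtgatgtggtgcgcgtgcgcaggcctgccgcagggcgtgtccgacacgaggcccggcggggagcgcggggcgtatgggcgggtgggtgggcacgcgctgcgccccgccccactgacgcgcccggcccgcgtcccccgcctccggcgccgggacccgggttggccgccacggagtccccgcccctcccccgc
Pdk1: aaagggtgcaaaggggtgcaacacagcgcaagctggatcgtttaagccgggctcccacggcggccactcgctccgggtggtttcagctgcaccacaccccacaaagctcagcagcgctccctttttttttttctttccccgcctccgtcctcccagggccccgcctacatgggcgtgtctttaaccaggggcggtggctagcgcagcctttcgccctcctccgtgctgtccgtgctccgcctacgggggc
Ldha: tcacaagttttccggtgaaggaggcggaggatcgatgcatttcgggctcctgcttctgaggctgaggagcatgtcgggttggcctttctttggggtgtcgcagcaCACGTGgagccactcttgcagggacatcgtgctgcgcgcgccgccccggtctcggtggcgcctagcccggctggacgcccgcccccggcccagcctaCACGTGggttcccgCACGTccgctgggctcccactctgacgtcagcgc
The letters searched, on both strands, were the E-box CACGTG and the core ACGTG where it was not inside an E-box. The Ldha window held 2 E-boxes, beginning 145 and 48 bases before the start, and 1 core at 34 bases. Pgam1 held 1 core, beginning 114 bases before the start. The windows of Tpi1, Odc1 and Pdk1 held neither.

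Of the 30 members with an entry, 4 (13.3%) had an E-box in this window: Hif1a, Ldha, Pfkm and Slc16a1. An E-box was present for 6.9% of all 27025 genes in the table and 8.6% of the 13639 of them measured here. The core outside an E-box was present for 12 of 30 members (40.0%), Aldoa, Hif1a, Hk2, Ldha, Pfkm, Pgam1, Pgk1, Pkm, Slc16a3, Slc2a1, Slc3a2 and Tfrc, against 12.8% and 14.8%. A gene with several starts has several windows and was counted if any of them matched. By window, the core was in 13 of 44 of the members and 11.4% of all 32851. The E-box was in 4 of 44 and 6.0%. Of the 4 genes that rose, Pgam1 was the one with either motif among the 3 with an entry. A match is a description of letters and not of binding.

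Tpi1 interconverts the triose phosphates of glycolysis. In WT cells it stood at 1.84, 1.78 and 1.36 at 1 week and at 1.86, 1.65 and 1.72 at 4 weeks. LAT KO cells gave 2.0, 1.26 and 1.17 at 1 week and 1.42, 1.32 and 1.42 at 4 weeks. In Y136F cells the values were 1.33, 1.64 and 1.91 at 1 week and 2.72, 2.70 and 2.74 at 4 weeks. The 3 Y136F arrays of 4 weeks lay above all the other 15, and the LAT KO arrays of 4 weeks lay below the WT arrays of that time. Many features parted 2 groups without overlap. At 4 weeks LAT KO lay above WT in 9.39% of all features and below in 13.8%, and in 4 and 4 of 32 members. Y136F lay above WT in 9.36% and below in 16.7%, and in 15 and 2 of 32 members. LAT KO lay above Y136F in 12.7% and below in 9.61%, and in 3 and 17 of 33 members. Mean Tpi1 levels at 4 weeks were 1.75 ± 0.11 (WT), 1.38 ± 0.06 (LAT KO) and 2.72 ± 0.02 (Y136F; SD, n = 3). The rise in Y136F over WT was 0.97 ± 0.20 on the log2 scale (SE; 95% interval 0.56 to 1.38; adjusted p = 0.00742). LAT KO cells at 4 weeks lay 1.33 ± 0.20 below Y136F (SE; adjusted p = 0.00067).

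Pgam1, the phosphoglycerate mutase of lower glycolysis, followed the same order at 4 weeks for Y136F against the rest. WT cells read 3.34, 3.16 and 2.95 at 1 week and 3.02, 2.86 and 2.77 at 4 weeks. LAT KO cells read 2.94, 2.89 and 2.76, then 3.11, 3.08 and 2.82. Y136F cells read 2.99, 2.91 and 3.23 at 1 week and 3.45, 3.67 and 3.51 at 4 weeks. Again the 3 Y136F arrays of 4 weeks were the highest of all 18, with the highest WT array of 1 week next below them. The rise over WT at 4 weeks was 0.66 ± 0.14 (SE; 95% interval 0.37 to 0.96; adjusted p = 0.0106). LAT KO cells lay below Y136F by a difference of -0.54 ± 0.14 (SE; adjusted p = 0.0376), a call lost under 9 of the alternatives that keep all arrays or drop several, among them quantile normalization (-0.48, adjusted p = 0.057), the authors' series matrix (-0.49, adjusted p = 0.0783), slide as a fixed term and no intensity trend.

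Odc1, the rate-limiting enzyme of polyamine synthesis, had the largest rise of the 35 members. Its WT levels were 2.07, 1.92 and 1.68 at 1 week and 2.14, 1.66 and 1.64 at 4 weeks. Its LAT KO levels were 2.43, 2.21 and 1.70 at 1 week and 2.33, 1.92 and 1.85 at 4 weeks. In Y136F it stood at 2.44, 2.47 and 2.33 at 1 week and 2.94, 2.83 and 2.94 at 4 weeks. Y136F arrays were above WT arrays at both times without overlap, and at 4 weeks above all 15 others. At 1 week Y136F lay above WT without overlap in 4.46% of all features and below in 6.19%, and in 3 and 1 of 33 members. At 4 weeks Odc1 rose by 1.09 ± 0.19 over WT (SE; 95% interval 0.70 to 1.48; adjusted p = 0.00247), and a second Odc1 probe gave a difference of 1.06. At 1 week the difference of 0.52 ± 0.19 did not pass the test (adjusted p = 0.6). LAT KO cells at 4 weeks lay below Y136F (-0.87 ± 0.19, adjusted p = 0.0114).

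Slc1a5, a carrier of glutamine and other neutral amino acids, was at 4.88, 4.73 and 4.59 in WT cells at 1 week and 4.59, 4.52 and 4.27 at 4 weeks. In LAT KO cells it was at 4.83, 4.63 and 4.52, then 4.83, 4.70 and 4.66. In Y136F cells it was at 4.99, 4.53 and 5.03, then 5.0, 5.25 and 5.31. The Y136F arrays of 4 weeks lay above the WT and LAT KO arrays of 4 weeks but not above all Y136F arrays of 1 week. The LAT KO arrays of 4 weeks also lay above all WT arrays of that time. Slc1a5 rose by 0.73 ± 0.16 in Y136F over WT at 4 weeks (SE; 95% interval 0.39 to 1.07; adjusted p = 0.0155). The difference of LAT KO from Y136F at that time did not pass the test.

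Pdk1, the kinase that inhibits pyruvate dehydrogenase and so limits the oxidation of pyruvate in mitochondria, was lowest in Y136F cells at 4 weeks. WT cells stood at 2.18, 1.76 and 1.59 at 1 week and at 1.6, 1.57 and 1.6 at 4 weeks. LAT KO cells stood at 2.01, 2.39 and 1.91 at 1 week and at 1.91, 2.48 and 2.0 at 4 weeks. Y136F cells stood at 2.40, 2.41 and 2.71 at 1 week and at 0.87, 0.91 and 1.19 at 4 weeks. The Y136F arrays were thus above all WT arrays at 1 week and below all the other 15 arrays at 4 weeks. Neither difference from WT passed the test by itself (0.67 ± 0.18, adjusted p = 0.299, at 1 week; -0.60 ± 0.18, adjusted p = 0.0823, at 4 weeks), although the difference at 4 weeks passed under 6 of 36 alternatives, both quantile scalings included, and that at 1 week under 1, array weights. The change of the difference between the 2 times did, at -1.27 ± 0.26 (SE; 95% interval -1.81 to -0.73; adjusted p = 0.029). It was 1 of 34 members called in that comparison, where 0.517% of all features were called, and leaving out single arrays gave values from -1.44 to -1.15. The call was lost without any 1 of 10 arrays (adjusted p = 0.062 to 0.092): WT mice 2 and 3 of 1 week, each Y136F mouse of 1 week, each WT mouse of 4 weeks, and Y136F mice 1 and 2 of 4 weeks. At 4 weeks LAT KO cells lay above Y136F by 1.14 ± 0.18 (SE; adjusted p = 0.00129).

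**Figure D2:**
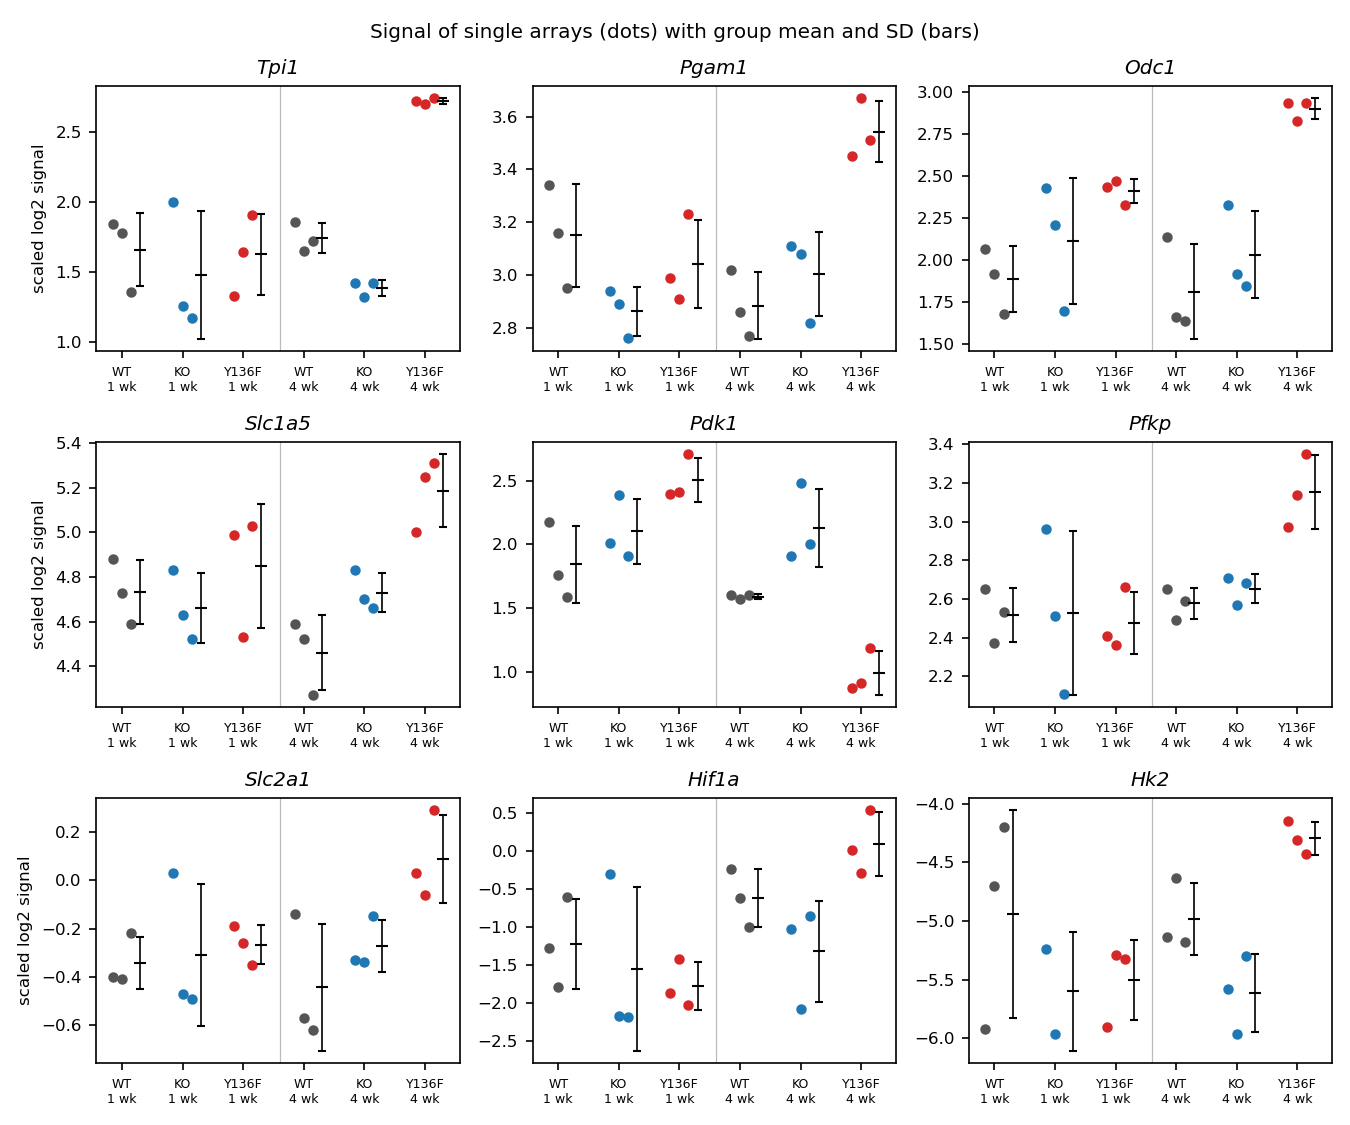
Scaled log2 signal (vertical axis) of 9 members on each array, by group (horizontal axis), with dots for arrays and bars for the group mean ± SD. Tpi1 reads 2.70 to 2.74 in Y136F cells at 4 weeks and at most 2.0 elsewhere, and Pdk1 reads 0.87 to 1.19 there and at least 1.57 elsewhere.

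Against Y136F at 4 weeks, LAT KO cells were lower for Tpi1, Odc1 and Pgam1 and higher for Pdk1, 4 of 35 members, where 3.37% of all features were called (1.04% higher and 2.33% lower). This comparison and that of Y136F with WT share the Y136F arrays. The calls of Tpi1 and Pdk1 held whichever array was left out. Odc1 lost its call without LAT KO mouse 2, LAT KO mouse 3 or Y136F mouse 1 of 4 weeks (-0.78 to -1.02 over all arrays left out in turn), and Pgam1 lost its call without any of the 6 arrays compared or either of 2 others, Y136F mouse 1 of 1 week and WT mouse 2 of 4 weeks (-0.45 to -0.60). With the labelled sex as a term, which could be estimated from arrays of 1 week only, Pdk1 alone kept its call (1.47, adjusted p = 0.012). The monocarboxylate carrier Slc16a3 was next, at -0.62 (adjusted p = 0.064). The median difference was -0.31 over the members and 0.03 over all features. At 1 week none of 34 members differed between LAT KO and Y136F, with 0% of all features called, 2 members at an unadjusted p under 0.05 (Pdk1 and Tfrc) and 1800 of all features at that level.

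Values moving with Y136F at 4 weeks outside the 35 genes were large. The 15 proliferation markers summed to 27.1 to 38.2 times the 75th percentile in these cells and to 5.48 to 15.4 in all other groups, and 10 of the 15 rose against WT. Mki67 alone stood at 1.67 to 1.98, and at -1.42 to 0.04 elsewhere. The 6 plasma cell markers on the array summed to 4.39 to 5.95 against 1.63 to 3.57 elsewhere, and 3 of them rose. Of the 10 CD4 T cell markers, 1 rose, Cd5, and 2 fell, the homing receptor gene Ccr7 (-1.36) among them. One of 12 myeloid markers and 1 of 7 NK cell markers rose (S100a8, well above background on 9 of 18 arrays, and Eomes), and none of 10 B cell, 8 erythroid or 1 CD8 T cell markers did. No defining marker was at 0, and the part of these cells in the members' differences was not tested.

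Sex moved with genotype in the same comparison, since all Y136F mice were labelled female and all WT mice of 4 weeks male. With the labelled sex as a term in the model none of the 4 rises kept its call: Odc1 was at 0.62 (adjusted p = 0.366), Tpi1 at 0.52 (0.565), Pgam1 at 0.44 (0.49) and Slc1a5 at 0.52 (0.494). Only the WT and LAT KO groups of 1 week held both labelled sexes, so the term was estimated there and carried to 4 weeks. LAT KO mouse 1 of 1 week is among those arrays, and its genes went against its label. Calls lost or kept with this term therefore cannot part sex from genotype at 4 weeks. With sex read from the Y-linked gene Ddx3y, an alternative added after seeing the data, Odc1 rose by 1.0 (adjusted p = 0.0354) and Tpi1 lay at 0.96 (0.0557), Pgam1 at 0.51 (0.149) and Slc1a5 at 0.69 (0.11). Female arrays of the other groups, 7 by their genes, reached 1.91 for Tpi1, 2.47 for Odc1 and 3.34 for Pgam1, all below the Y136F arrays of 4 weeks. For Slc1a5 they reached 5.03, within the Y136F range. The lowest of them for Pdk1 was 1.76, above the Y136F arrays of 4 weeks. Except for Slc1a5 these orders had to follow, since the Y136F arrays of 4 weeks lay outside the range of all other arrays. All these female arrays were of 1 week save LAT KO mouse 2 of 4 weeks, labelled male. None was a WT array of 4 weeks, so they cannot part sex from genotype at that time.

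For the 4 genes that rose, all Y136F arrays of 4 weeks lay above all WT arrays of that time. Each of 3 slides that held both groups therefore had to show a rise, and only its size was open. Within slides the Y136F array lay above the WT array by 0.85 to 1.05 for Tpi1, 0.43 to 0.81 for Pgam1, 0.81 to 1.30 for Odc1 and 0.41 to 1.05 for Slc1a5. Odc1 and Tpi1 kept their call whichever array was left out. Without LAT KO mouse 1 of 1 week, which enters the spread but not the difference, Pfkl, Pfkp and Slc2a1 were called as well, 7 members in all. The share of all features called in that fit is not given here, so this count is no result about the members. Pgam1 (0.61, adjusted p = 0.0625) and Slc1a5 (0.63, adjusted p = 0.0988) lost theirs without WT mouse 3 of 4 weeks, and also without Y136F mouse 2 of 4 weeks (0.60, adjusted p = 0.0639, and 0.70, adjusted p = 0.0697). Slc1a5 also lost it without Y136F mouse 3 of 4 weeks (0.67, adjusted p = 0.0923), and Pgam1 without WT mouse 2 of 4 weeks (adjusted p = 0.05).

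**Figure D3:**
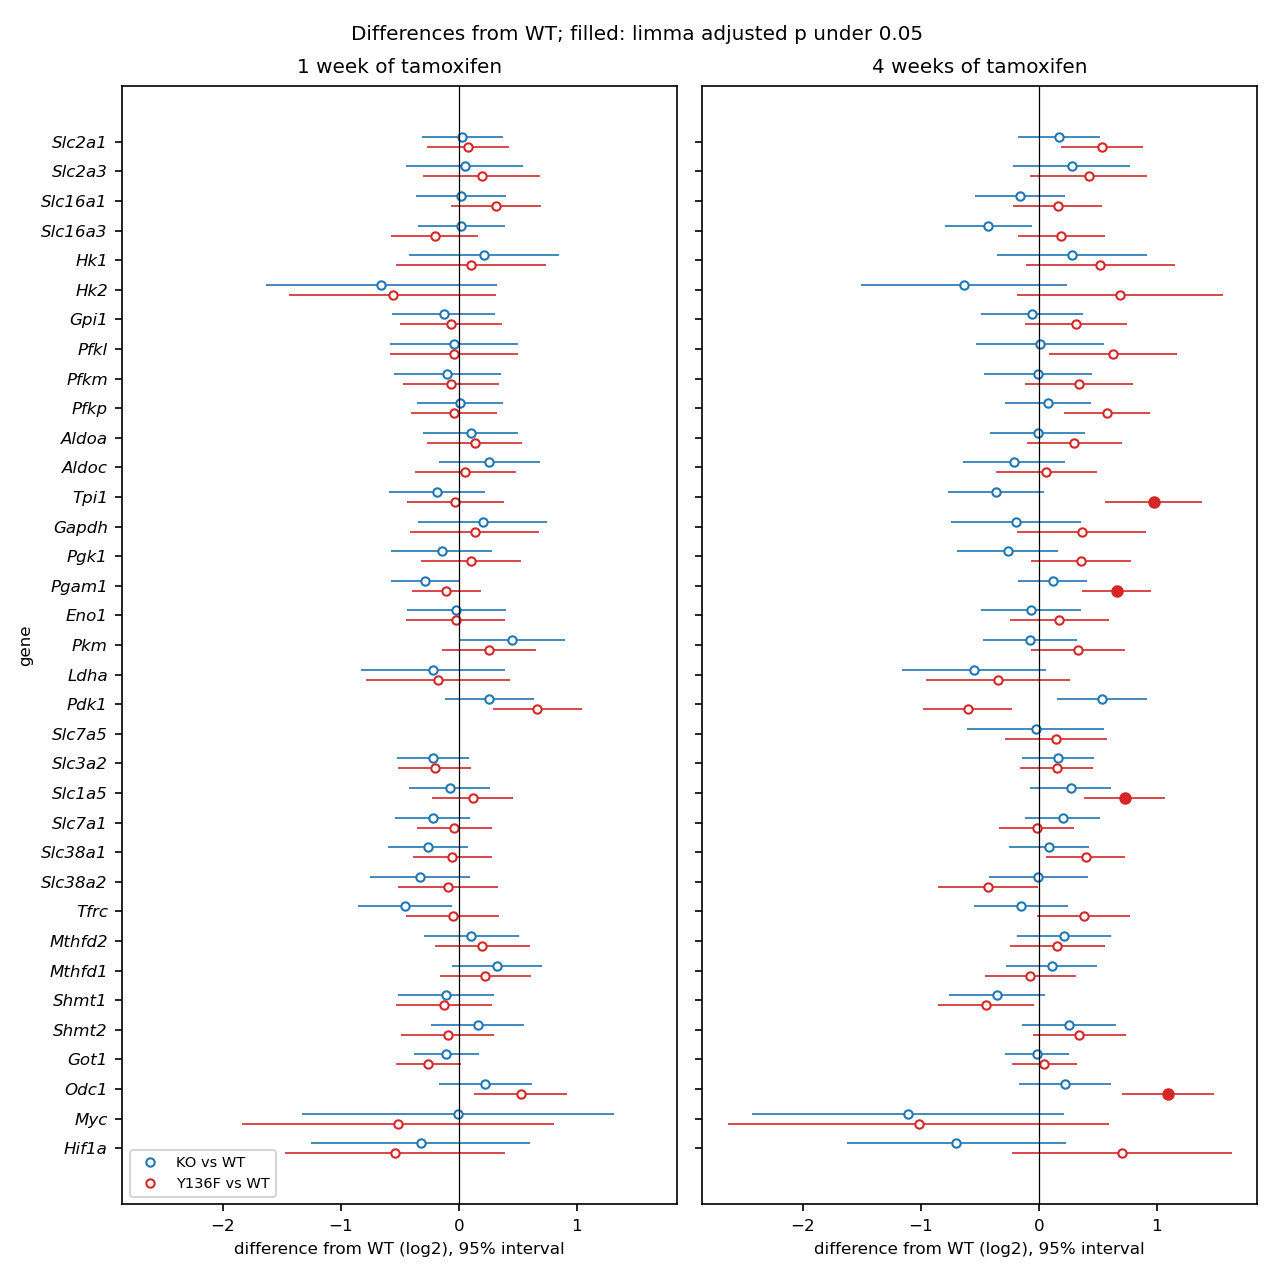
Differences of LAT KO and Y136F from WT at 1 and 4 weeks (horizontal axis, log2 scale) for each member (vertical axis), with 95% intervals and filled points for an adjusted p under 0.05. Filled points appear for Odc1, Tpi1, Slc1a5 and Pgam1 in Y136F at 4 weeks and for no member in the other 3 comparisons.

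Among the glucose carriers, Slc2a1 encodes the carrier GLUT1 that activated T cells bring to the surface. It stood at -0.40, -0.41 and -0.22 in WT cells at 1 week and at -0.14, -0.57 and -0.62 at 4 weeks. LAT KO cells gave 0.03, -0.47 and -0.49, then -0.33, -0.34 and -0.15. Y136F cells gave -0.19, -0.26 and -0.35, then 0.03, -0.06 and 0.29. At 4 weeks the Y136F arrays were above all WT and LAT KO arrays of that time. The difference from WT was 0.53 ± 0.17 and did not pass the test (SE; adjusted p = 0.0951).

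Slc2a3, the high-affinity carrier GLUT3, was at 0.80, 0.59 and 0.61 in WT cells at 1 week and 0.77, 0.45 and 0.64 at 4 weeks. LAT KO cells had 1.43, 0.61 and 0.11 at 1 week, the widest spread of any group, and 0.83, 0.89 and 0.99 at 4 weeks. Y136F cells had 0.81, 0.65 and 1.11, then 0.90, 0.91 and 1.33. At 4 weeks both LAT KO and Y136F arrays lay above all WT arrays and overlapped each other. The difference of Y136F from WT was 0.42 ± 0.24 (adjusted p = 0.384). The lactate carriers Slc16a1 (0.16) and Slc16a3 (0.19) gave smaller differences in that comparison.

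Of the other glycolytic enzymes, Hk2, the inducible hexokinase, gave a dim signal. It was at -5.92, -4.70 and -4.20 in WT cells at 1 week and -5.14, -4.63 and -5.18 at 4 weeks. LAT KO cells read -5.24 and -5.96 on the 2 arrays kept at 1 week and -5.58, -5.96 and -5.30 at 4 weeks. Y136F cells read -5.90, -5.29 and -5.32, then -4.15, -4.31 and -4.43. The Y136F arrays of 4 weeks were above all arrays of that time, but the highest WT array of 1 week lay among them. Neither the difference from WT (0.69 ± 0.41, adjusted p = 0.421) nor that of LAT KO from Y136F (-1.32 ± 0.41, adjusted p = 0.112) passed the test.

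Ldha, which turns pyruvate into lactate, was measured by 2 probes that differed. Its brightest probe read 4.13, 4.29 and 4.5 in WT cells at 1 week and 4.53, 5.72 and 4.32 at 4 weeks. LAT KO cells gave 4.41, 4.11 and 3.76, then 4.76, 4.23 and 3.93. Y136F cells gave 3.89, 4.13 and 4.37, then 4.53, 4.59 and 4.40. WT mouse 2 at 4 weeks stood far above all other arrays on this probe, while the second Ldha probe read 4.31, 4.25 and 4.37 on the 3 WT arrays of 4 weeks. The difference of Y136F from WT at 4 weeks was -0.35 ± 0.29 on the first probe (adjusted p = 0.553) and 0.15 on the second.

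The remaining glycolytic enzymes were not called in any comparison. The phosphofructokinases Pfkp (0.58 ± 0.17, adjusted p = 0.0833) and Pfkl (0.63 ± 0.26, adjusted p = 0.235) came nearest in Y136F at 4 weeks. Pfkp read 2.97, 3.14 and 3.35 there, above all 15 other arrays, whose highest was 2.96, but a second Pfkp probe gave a difference of -0.06. Pgk1 also lay above all other arrays, with a mean of 3.79 ± 0.10 against 3.43 ± 0.13 in WT cells (SD, n = 3; difference 0.36, adjusted p = 0.391). Hk1 (0.52), Gapdh (0.37), Pfkm (0.34), Pkm (0.33), Gpi1 (0.32), Aldoa (0.30), Eno1 (0.18) and Aldoc (0.07) followed, all with an adjusted p of 0.397 or more. In all, 5 of 34 members compared (14.7%) lay above all the other 15 arrays in Y136F at 4 weeks, Pfkp, Tpi1, Pgk1, Pgam1 and Odc1, against 3.26% of all features. Pdk1 was the one member below them, against 1.98% of all features.

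Among the carriers of amino acids, Slc7a5 and Slc3a2 form the heterodimer that brings leucine into T cells. The Slc7a5 spot was left out as an outlier on 11 of 18 arrays, among them every WT and LAT KO array of 1 week, so it was tested at 4 weeks only. It was at 1.65 and 1.64 on 2 WT arrays, 1.62 on 1 LAT KO array and 1.75, 2.07 and 1.57 on the Y136F arrays of 4 weeks. One Y136F array of 1 week gave 1.38. The groups overlapped at 4 weeks, with a difference of 0.15 ± 0.19 between Y136F and WT (adjusted p = 0.7). With outlier spots kept, that difference was -0.37 ± 0.37 (SE; adjusted p = 0.655).

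Slc3a2 was at 2.41, 2.31 and 2.45 in WT cells at 1 week and 2.33, 2.22 and 1.97 at 4 weeks. LAT KO cells had 2.43, 2.25 and 1.83, then 2.44, 2.29 and 2.27. Y136F cells had 2.09, 2.22 and 2.24, then 2.30, 2.23 and 2.43. The groups overlapped at 4 weeks, while at 1 week the Y136F arrays lay below all WT arrays. The difference at 4 weeks was 0.15 ± 0.15 (adjusted p = 0.602), and a second probe gave -0.46.

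Tfrc, the transferrin receptor through which T cells take up iron, was at -1.34, -1.79 and -1.76 in WT cells at 1 week and -1.65, -2.02 and -2.10 at 4 weeks. LAT KO cells gave -1.86, -2.35 and -2.04, then -1.98, -1.90 and -2.34. Y136F cells gave -1.82, -1.55 and -1.67, then -1.55, -1.52 and -1.56. The Y136F arrays of 4 weeks lay above all WT and LAT KO arrays of that time. At 1 week LAT KO lay below WT without overlap in 2.76% of all features and 2 of 30 members. For Tfrc all 3 LAT KO arrays of 1 week lay below all WT and Y136F arrays of 1 week. That difference from WT was -0.45 ± 0.19 and did not pass the test (adjusted p = 1), nor did the 0.38 ± 0.19 between Y136F and WT at 4 weeks (adjusted p = 0.328). Of the other carriers, Slc38a1 (0.40) and Slc38a2 (-0.43), both sodium-coupled neutral amino acid carriers, lay on opposite sides of 0 in Y136F at 4 weeks, and the arginine carrier Slc7a1 lay at -0.02, none of them called.

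Mthfd2, the mitochondrial one-carbon enzyme that rises in activated T cells, stood at 1.38, 0.84 and 1.07 in WT cells at 1 week and 1.46, 1.11 and 1.07 at 4 weeks. LAT KO cells stood at 1.55, 1.28 and 0.79, then 1.34, 1.59 and 1.35. Y136F cells stood at 1.15, 1.17 and 1.58, then 1.35, 1.30 and 1.46. All groups overlapped WT. The difference of Y136F from WT at 4 weeks was 0.16 ± 0.19 (adjusted p = 0.678). Of its partners, the serine hydroxymethyltransferases Shmt2 (0.34) and Shmt1 (-0.44) lay on opposite sides of 0, and Mthfd1 (-0.07) and the aspartate aminotransferase Got1 (0.05) near 0.

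Myc was measured by 3 probes. Its brightest probe was left out as an outlier on 7 of 18 arrays. It read 3.33 and 4.48 in WT cells at 1 week and 5.78 and 3.44 at 4 weeks, 4.01 and 3.80, then 3.57 and 3.44 in LAT KO cells, and 3.37 and 3.41, then 3.59 alone in Y136F cells. Its difference between Y136F and WT at 4 weeks, -1.02 ± 0.73 (adjusted p = 0.503), rests on 1 Y136F and 2 WT arrays that differ from each other by more than that.

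The other Myc probes were measured on all arrays and gave closer values. The second read 1.37, 1.22 and 0.91 in WT cells at 1 week and 0.44, 0.55 and 0.49 at 4 weeks. In LAT KO cells it read 0.70, 0.64 and 0.40, then 0.48, 0.60 and 0.66, and in Y136F cells 0.75, 0.46 and 0.93, then 0.19, 0.58 and 0.59. WT cells of 1 week were thus the highest group, with their lowest array inside the Y136F range, and the groups of 4 weeks overlapped. Tested probe by probe, an alternative added after seeing the data, the other 2 probes differed between LAT KO and WT at 1 week by -0.59 (adjusted p = 0.744) and -0.67 (0.566), and between Y136F and WT at 4 weeks by -0.04 and 0.04. WT cells of 4 weeks lay below those of 1 week by differences of -0.67 (adjusted p = 0.102) and -0.82 (0.0965). No Myc probe passed the test in these comparisons.

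**Figure D4:**
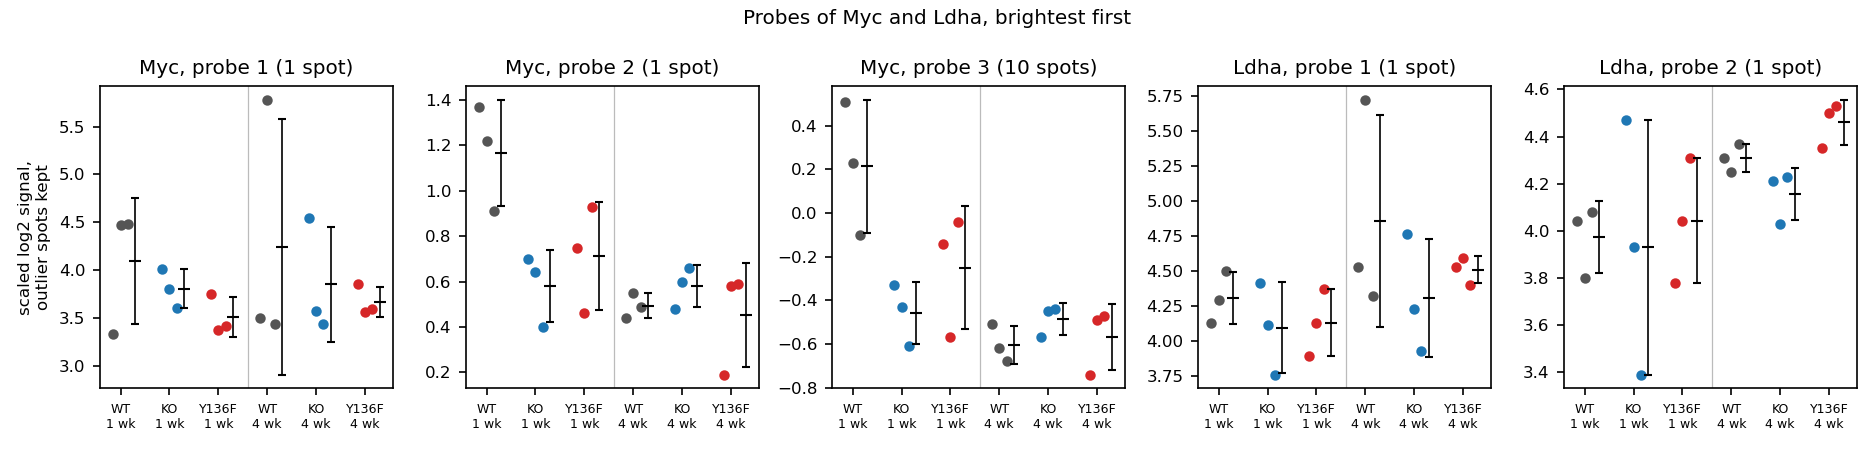
Scaled log2 signal (vertical axis) of the 3 Myc probes and the 2 Ldha probes on each array, by group (horizontal axis), with outlier spots kept. The brightest Myc and Ldha probes each have 1 WT array of 4 weeks far above the rest (5.72 for Ldha), which the other probes of the same genes do not show.

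Hif1a, the oxygen-regulated factor that drives many glycolytic genes, varied widely within groups. WT cells gave -1.27, -1.79 and -0.61 at 1 week and -0.24, -0.62 and -1.0 at 4 weeks. LAT KO cells gave -0.30, -2.17 and -2.18, then -1.02, -2.08 and -0.86. Y136F cells gave -1.86, -1.42 and -2.03, then 0.02, -0.29 and 0.54. At 4 weeks the lowest Y136F array fell within the WT range, while all Y136F arrays lay above all LAT KO arrays of that time. The differences of Y136F from WT (0.71 ± 0.44, adjusted p = 0.435) and of LAT KO from Y136F (-1.41 ± 0.44, adjusted p = 0.109) did not pass the test.

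LAT KO cells gave no call among the members at either time. At 4 weeks none of 35 members was called, where 0.0982% of all features were (0.057% higher and 0.0412% lower), and Pdk1 (0.54 ± 0.18, adjusted p = 0.344) and Slc16a3 (-0.43, adjusted p = 0.407) were the 2 at an unadjusted p under 0.05. Of all 31566 features, 3460 were at that level. The median difference was -0.01 over the members and -0.17 over all features. Tpi1 stood below all WT arrays (-0.36, adjusted p = 0.495). At 1 week none of 34 members was called and 0.019% of all features were, with Tfrc and Pkm (0.45, adjusted p = 1) at an unadjusted p under 0.05. Of all 31553 features, 905 were at that level. The spread was wide at 1 week: LAT KO mouse 1 was the highest of 9 arrays for 15 of 30 members and for 12.2% of all features, and LAT KO mouse 3 was the lowest for 20 of 30 members and for 20.6% of all features. Leaving out these arrays and WT mouse 3 of 1 week left LAT KO mouse 2 alone in its group. That alternative therefore cannot show whether members differ at 1 week.

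At 1 week Y136F cells likewise differed from WT in none of 34 members, where 0.0158% of all features were called (0.00317% higher and 0.0127% lower). Pdk1 and Odc1 were the 2 members at an unadjusted p under 0.05, and both lay higher. Of all 31559 features, 1905 were at that level. The median difference was -0.04 over the members and -0.12 over all features. WT cells of 4 weeks differed from those of 1 week in none of 34 members, with 0% of all features called, 1 member at an unadjusted p under 0.05 (Pkm, 0.43) and 6106 of all features at that level. The LAT KO difference changed between the times in none of 34 members, with 0% of all features called and 0 members and 1611 of all features at an unadjusted p under 0.05.

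Other genes of these pathways, in 13 lists of 219 genes of which 210 were measured, are counted beside the members. Between Y136F and WT at 4 weeks 5 rose and 4 fell, 4.29% of them against 3.39% of all features, with a median difference of -0.09. Of 17 genes of the HIF pathway and hypoxia targets, the alternative subunit Epas1 (3.0 ± 0.34, adjusted p = 0.00011), the prolyl hydroxylase Egln3 (1.39, adjusted p = 0.00781) and Ankrd37 (0.68, adjusted p = 0.0487) rose, and Ddit4, an inhibitor of mTORC1, fell (-0.93, adjusted p = 0.0109). The Y136F difference changed from 1 to 4 weeks in 3 genes of the lists, 1.43% of them against 0.517% of all features: upward for Epas1 (3.23, adjusted p = 0.00526) and downward for Sesn1 (-1.52, adjusted p = 0.0226) and Slc16a5 (-1.54, adjusted p = 0.0171). The change of Epas1 kept its call whichever array was left out, while that of Sesn1 lost it without 8 of the 18 arrays in turn and that of Slc16a5 without 6.

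Amino acid transport outside the members held 1 rise among 19 genes, the neutral amino acid carrier Slc1a4 (1.48, adjusted p = 0.00211), a relative of Slc1a5. Of 20 further serine and one-carbon enzymes only thymidylate synthase, Tyms, rose (1.72, adjusted p = 0.00121), a gene that is also among the proliferation markers. Of 19 genes of mTORC1 and AMPK signalling Sesn1, which restrains mTORC1, fell (-1.23, adjusted p = 0.00211). The polyamine list held 1 fall in 10 genes, Sat1, which acetylates polyamines for export or breakdown (-0.55, adjusted p = 0.0482). The calls of Epas1, Slc1a4, Tyms and Sesn1 against WT held whichever array was left out, and those of Ankrd37 and Sat1 were lost without 13 and 12 of the 18 arrays in turn. Of the arrays of 4 weeks, Egln3 lost its call without WT mouse 3, and Ddit4 without WT mouse 3 or Y136F mouse 1. With the labelled sex as a term, estimated from arrays of 1 week only, Epas1, Sesn1 and Ddit4 kept their calls. With the mean of its probes in place of the brightest Slc1a4 lost its own (0.51, adjusted p = 0.462).

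Glycolysis isozymes and regulators outside the members lay mostly on the other side: 2 of 23 were above 0, the median was -0.21 and Eno3, the muscle enolase, fell (-0.73, adjusted p = 0.0103), a call lost without WT mouse 2 or Y136F mouse 2 of 4 weeks. The 19 ribosome biogenesis genes known as Myc targets had a median of -0.24 with 2 above 0, and none was called (nearest Bop1, -0.48, adjusted p = 0.192). The 11 measured genes of the Myc network had a median of -0.21 and no call (nearest Mxd1, 0.86, adjusted p = 0.13). These medians stand beside the -0.19 of all features. No gene was called among 8 of the pentose phosphate pathway (median 0.09), 23 of the tricarboxylic acid cycle and glutamine use (0.07), 11 of iron handling (0.10), 17 ATF4 and amino acid response targets (0.07) or 15 other glucose and monocarboxylate carriers (-0.27), and the nearest were Tkt, Got2, Aco1, Atf5 and Slc2a2.

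In LAT KO cells at 4 weeks 1 of the 210 genes was called, the monocarboxylate carrier family member Slc16a5, which rose by 1.27 ± 0.20 over WT (SE; adjusted p = 0.0177). Without LAT KO mouse 2, whose sex-linked genes went against its label, the difference was 1.08 (adjusted p = 0.167), and the call was also lost without LAT KO mouse 1 (1.33, adjusted p = 0.0556), WT mouse 2 (1.31, adjusted p = 0.0637) or WT mouse 3 (1.22, adjusted p = 0.128) of 4 weeks. Between LAT KO and Y136F at 4 weeks 5 were higher and 6 lower in LAT KO, 5.24% of the lists against 3.37% of all features, among them Slc16a5 (1.88) and Sesn1 (1.38) higher and Epas1 (-2.65) and Tyms (-1.97) lower. Without LAT KO mouse 2 of 4 weeks 4 of these 11 calls held, these 4 genes. None of the 210 was called in either comparison with WT at 1 week.

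**Figure D5:**
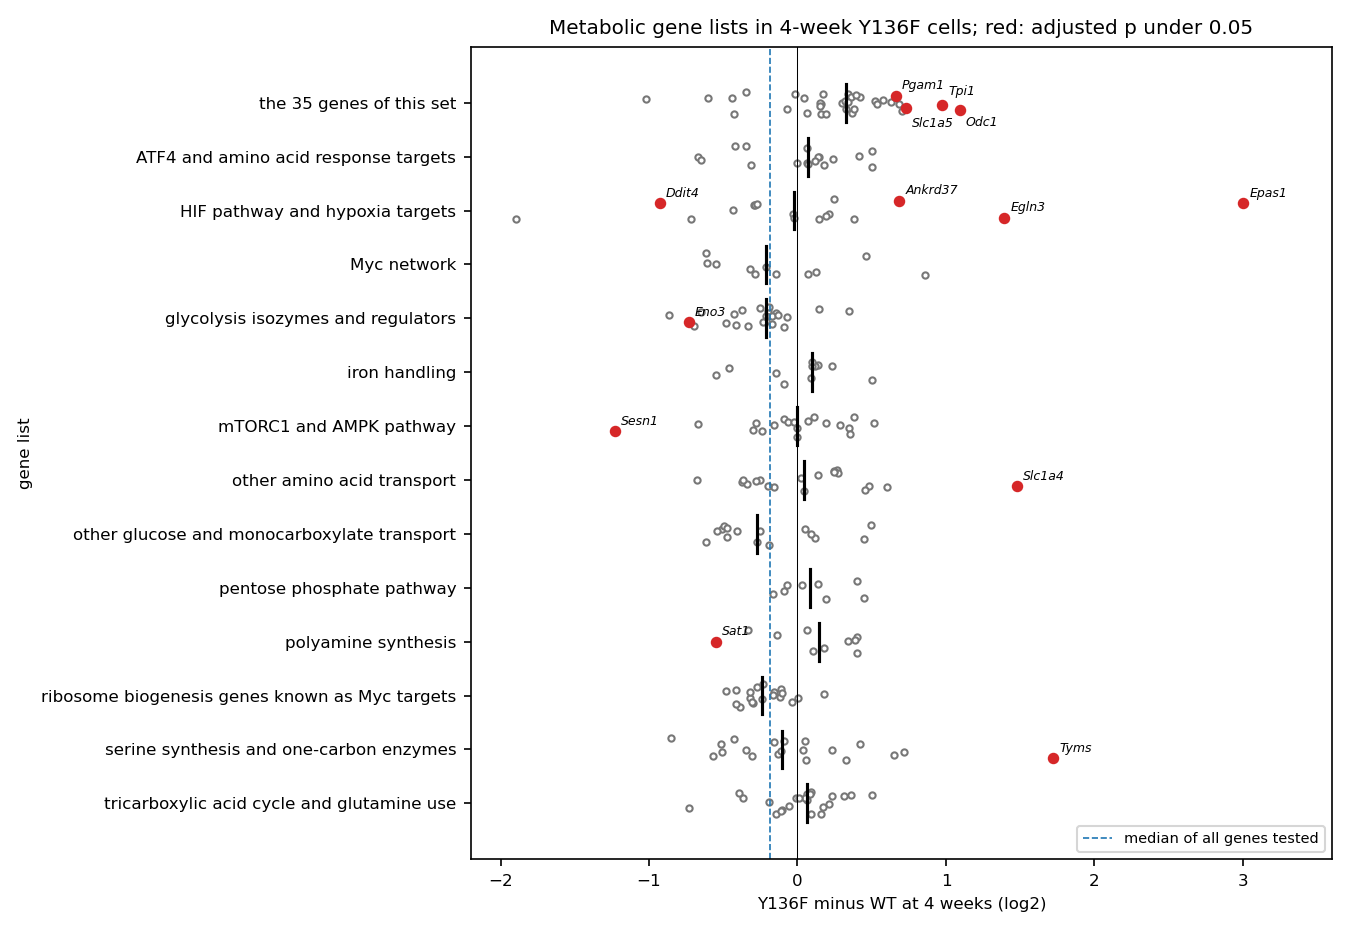
Difference between Y136F and WT at 4 weeks (horizontal axis, log2 scale) for each gene of the member group and 13 lists (vertical axis), with red points for calls, a black bar for each list's median and a dashed line for the median of all features. The member median of 0.33 lies above the dashed line at -0.19, and Epas1 at 3.0 is the farthest point to the right.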

How the data were processed

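Total RNA of sorted CD44low CD4+ T cells from 18 mice was labelled with Cy3 and read on 1-colour Agilent arrays on 5 slides. Per the file headers, the deposited intensity values of each spot come from Agilent Feature Extraction 10.5.1.1, which had already subtracted background. The submitters' processing notes name Feature Extraction 10.5 and limma, and the authors' deposited series matrix holds log2 values with array medians of 8.56 to 8.57, whose normalization is not stated. It was used as an alternative.

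The log2 of each processed intensity was taken less that of its array's 75th percentile, which ranged from 1124 to 1896. Between 84.2% and 97.9% of 43379 spots were well above background and 0 were saturated. Outlier spots were left out, probes had to be well above background on 3 arrays, and the brightest probe of each gene was used. Of 41174 probes, 24844 had a gene name. Group means were fitted with limma 3.58.1 in R 4.3.3 (eBayes with an intensity trend, 12 residual degrees of freedom, two-sided, Benjamini-Hochberg over all features, threshold 0.05), on all 6 groups, for 9 comparisons. The number of arrays limits the precision. The fit was tested on simulated data.

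The members and the pathway and marker lists were chosen with earlier results of these data known. Values of every array are given for members called in any comparison and for Myc, Hif1a, Slc2a1, Slc2a3, Hk2, Ldha, Slc7a5, Slc3a2, Mthfd2 and Tfrc. Of each pathway list, up to 4 called genes are named by smallest p, or the gene nearest to a call. Of the 35 members, 14 had several probes, and 22 of their values were left out as outliers. Alternatives covered scaling, background, outliers, filter, probe choice, slide, sex, pairing, array weights and arrays left out. Another 3 were added after seeing the data: every probe tested alone, sex by Ddx3y, and leaving out 3 arrays of 1 week.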

Additional observations from a re-analysis of the deposited data

Results flagged for a closer look

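The Y136F difference of Pdk1 from WT changed between 1 and 4 weeks, by -1.27 on the log2 scale, and the test was of that change itself (limma, adjusted p = 0.029). All 3 Y136F arrays lay above all WT arrays at 1 week and below all of them at 4 weeks. The sign within each slide that held both groups follows from this. The differences there were 0.54 to 0.81 at 1 week and -0.73 to -0.42 at 4 weeks. The call of the change was lost without any 1 of 10 of the 18 arrays, and without the intensity trend.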

How the results depend on the processing

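Each count was recomputed under 37 settings. Under these settings no member was called for LAT KO against WT at 1 week, LAT KO against Y136F at 1 week, the change of the LAT KO difference, or WT across time. The setting without 3 arrays of 1 week is left aside for comparisons that use LAT KO cells of 1 week. It left LAT KO mouse 2 alone in that group. Of Y136F against WT at 4 weeks, 4 members were called, 6 under quantile normalization and 5 under normexp with quantile normalization (both with Pdk1 lower), 0 with sex by label, 2 with sex by Ddx3y, 10 with array weights, 8 without the 2 LAT KO arrays whose sex-linked genes went against their labels, and 2 to 7 with single arrays left out. Of LAT KO against Y136F at 4 weeks, 4 were called, 1 with sex by label, 13 with array weights, 8 without 3 arrays of 1 week, and 2 to 8 with single arrays left out. Of the change of the Y136F difference, 1 was called, 0 without the intensity trend, 4 with array weights, 2 under quantile normalization, without the 2 or the 3 arrays, or with only its own groups in the model, and 0 to 2 with single arrays left out. Array weights called 4 for LAT KO against WT at 4 weeks and 1 for Y136F against WT at 1 week. The cause of these shifts was not tested. Calls over all features are given below for some of these settings only. A member count that moves with the setting is therefore no result about the members. No called member turned its direction. Over all features, Y136F against WT at 4 weeks had 1069 calls, 73% of them higher, 4333 (42.7% higher) with array weights and 85 with sex by label. LAT KO against Y136F had 1063, or 2439, 2070, 681 and 167 with array weights, sex by Ddx3y, slide and sex by label. LAT KO against WT at 4 weeks had 31, or 3196 with array weights, 47 with slide as a random block and 7 without the trend. The change of the Y136F difference had 163, or 1149, 525, 485, 245, 99 and 50 with array weights, sex by Ddx3y, only its own groups, slide as a random block, no trend and sex by label. The median over all features moved from -0.19 to -0.06 under quantile normalization. With the replicate block, 4 members were called in each of the comparisons of Y136F with WT and LAT KO at 4 weeks and 1 in the change. Replicate numbers did not pair the mice (correlations of deviations from -0.29 to 0.45), and the block left 1067 calls over all features.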
